A study of Homo sapiens with 4 samples.

Results

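The 38 enzyme genes described here make, convert and recycle nucleotides, and they were taken by name from the 25702 genes counted in every library, with their NCBI gene numbers matched to symbols. No measured value is part of the rule that names them, but they were chosen with earlier results of these data known. They comprised 2 genes of phosphoribosyl pyrophosphate (PRPP) synthesis, 6 of the route to inosine monophosphate (IMP), 4 of the AMP and GMP branches, 5 of pyrimidine synthesis, 7 of deoxynucleotide synthesis and control, 6 mono- and diphosphate kinases and 8 salvage enzymes. Poly(A) RNA was sequenced from K562, an established human line from a chronic myeloid leukemia in blast crisis, after nucleofection with either LeGO-iG2 carrying the RUNX1::ERG fusion or the same plasmid without an insert (EV), with 2 libraries in each group and no further treatment in either. The plasmid also encodes green fluorescent protein, and the libraries stand for the whole transfected culture as far as the labels and methods tell. Transfected and untransfected cells were then read together. A change in some cells cannot be told apart from a smaller change in every cell. The paper reports that its nucleofection protocol consistently transfects most K562 cells. The comparison asked how the RNA of these enzymes differed with the fusion, which keeps the DNA-binding Runt domain of RUNX1 and the Ets domain of ERG.

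Cells build purine nucleotides on PRPP, step by step, until IMP is complete, and IMP is then turned into AMP or GMP. Pyrimidines are built as a free ring that is joined to PRPP afterwards, and ribonucleotide reductase turns ribonucleoside diphosphates into the precursors of DNA. Salvage enzymes return free bases and nucleosides to the pool, and dividing leukemia cells are known for drawing heavily on all of these routes, several of which are drug targets.

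Start regions of genes from these routes are shown for their arrangement and motif matches: PPAT and PAICS, the first enzyme of the IMP route and one of its later enzymes, are transcribed away from each other from one short stretch, ATIC makes the last steps of that route, and TYMS makes the thymidine nucleotide of DNA. They are given 5′ to 3′ on the plus strand from RefSeq, GRCh38.p14, with 136 bases between the PPAT and PAICS starts at chr4:56435616-56435751, and 250 bases before the start for ATIC at chr2:215311809-215312058 and for TYMS at chr18:657403-657652. Capitals mark an E-box (CACGTG) that lies 46 bases before the ATIC start, and a match to an E2F motif, read on the other strand, 39 bases before the TYMS start.
PPAT-PAICS: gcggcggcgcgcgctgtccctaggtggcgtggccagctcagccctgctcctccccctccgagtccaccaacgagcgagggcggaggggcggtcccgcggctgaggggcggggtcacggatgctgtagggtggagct
ATIC: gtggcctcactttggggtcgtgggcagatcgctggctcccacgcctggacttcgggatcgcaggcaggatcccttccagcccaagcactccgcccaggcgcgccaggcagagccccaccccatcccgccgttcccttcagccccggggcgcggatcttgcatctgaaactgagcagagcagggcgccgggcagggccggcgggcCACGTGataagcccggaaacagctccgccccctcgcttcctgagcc
TYMS: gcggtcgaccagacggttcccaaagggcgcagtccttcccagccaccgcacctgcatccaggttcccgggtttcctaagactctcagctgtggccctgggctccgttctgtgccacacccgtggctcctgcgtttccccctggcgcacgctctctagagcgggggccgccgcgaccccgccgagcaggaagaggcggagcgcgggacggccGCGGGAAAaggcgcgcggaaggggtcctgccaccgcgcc
The stretch between PPAT and PAICS holds none of the motifs searched, so the PPAT and PAICS matches given below do not lie within it. Of the 38 genes, 35 had windows of 250 upstream bases in the same table of 27305 genes. These 35 genes had 52 windows, and all genes in the table had 35116. A gene was counted if any of its windows matched, so the shares depend on the number of windows per gene. Both strands of every window were searched. The E-box was in the windows of ATIC, DCK, DHODH and PPAT, which is 11.4% of these 35 genes beside 7.7% of all genes in the table. One of the E2F motifs TTTGGCGC, TTTCCCGC and TTTCGCGC was in those of DUT, GART, PRPS2 and TYMS, again 11.4%, beside 2.8% of all genes. The ETS motif CCGGAAGT was found for NME1 and UCK1 (5.7%, beside 4.1% of all genes), and the RUNX motif TGTGGT for NME2 and PAICS (5.7%, beside 13.2%). These are matches of letters, described as such and not as sites.

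The libraries held 59695387 and 73203412 counts for EV and 82352144 and 71582089 for RUNX1::ERG. Of the counts from 1 to 10, 66.7% to 68.9% were even numbers, as happens when both ends of a fragment are counted, and with every count halved 0 of the 38 genes were called as well. Levels are given as CPM, counts scaled to a common library size. ERG was at 0.0664 and 0.0567 CPM with EV and 954 and 379 CPM with RUNX1::ERG, and RUNX1 was at 78.6 and 49.0 CPM with EV and 785 and 400.1 CPM with RUNX1::ERG, which follows the labels in every library. All 9 erythroleukemia markers of K562 were present, and CDKN2A, CDKN2B and MTAP, 3 neighbouring genes that this line is known to lack, had 0 counts in every library. EV replicate 1 stood apart in 16 genes of the response to amino acid shortage, whose summed level was 2989 CPM there, 634 CPM in EV replicate 2, and 610 and 520.4 CPM in the RUNX1::ERG libraries. Of 15 of them tested, 4 were called lower (PSAT1, PHGDH, INHBE and STC2), and 2 were without EV replicate 1. Without that library, the median log2 fold change was -0.30 over the 38 enzymes described below, with 33 below 0. By role it was -0.39 for PRPP synthesis, -0.56 for the IMP route and -0.46 for the AMP and GMP branches. It was -0.38 for pyrimidine synthesis, -0.26 for salvage, -0.095 for deoxynucleotide synthesis and -0.092 for the mono- and diphosphate kinases. Of 15394 genes tested, 737 had an adjusted p under 0.05 in edgeR's quasi-likelihood test.

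None of the 38 nucleotide enzyme genes passed that test, beside 4.79% of all genes tested, and the lowest edgeR quasi-likelihood p after Benjamini-Hochberg adjustment was 0.078, for ATIC. Without adjustment, 6 of them had a p under 0.05 with the lower level in RUNX1::ERG cells (ATIC, GART, IMPDH1, IMPDH2, PFAS and PAICS) and 0 with the higher level, where the lower direction had 7.26% of all genes tested. DESeq2's Wald test called 3 of the 38, namely ATIC, GART and IMPDH1, and limma voom called 0. Every one of the 38 passed the filter on low counts, and 37 of them had at least 100 counts in every library.

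The values leaned to one side while staying small. The fitted log2 fold change, RUNX1::ERG against EV, was below 0 for 34 of the 38 genes (all genes tested: 50.2%) and above 0 for RRM2, TYMS, CMPK1 and UCK1, and it ran from -0.60 in IMPDH1 to 0.34 in RRM2. Its median over the 38 genes was -0.22, a difference of -13.9%, and the median over all genes tested was -0.0017. In 22 of the 38 genes both RUNX1::ERG libraries were below both EV libraries, beside 22.1% of all genes tested. In 3 of the 38, RRM2, TYMS and UCK1, both were above, beside 25.1%. The groups overlapped in the other 13. The summed level of the 38 genes was 5203 and 5879 CPM with EV and 4513 and 4969 CPM with RUNX1::ERG, so that the gap between the nearest libraries of the 2 groups was smaller than the spread within the EV group. With 2 libraries against 2, an exact permutation test of a single gene cannot give a two-sided p below 0.333.

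**Figure D1:**
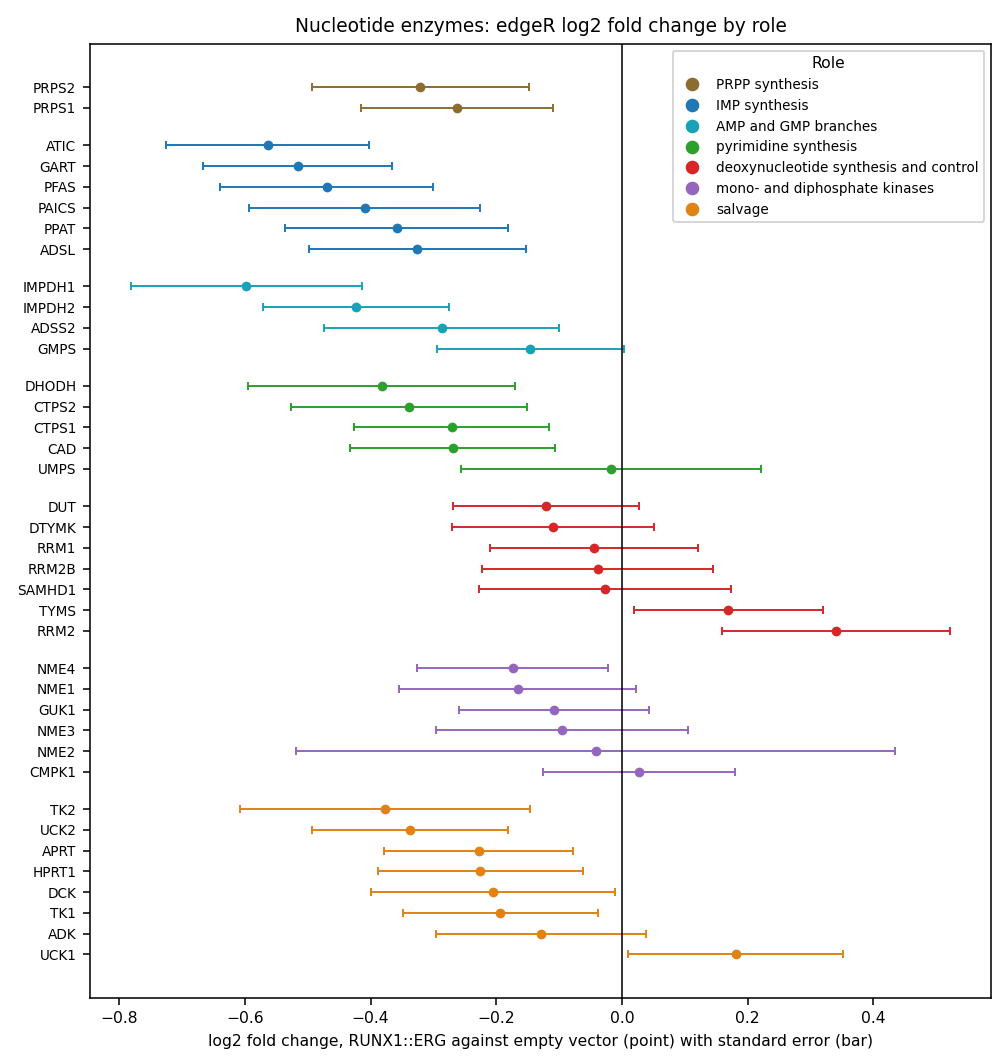
Fitted log2 fold change of each of the 38 nucleotide enzyme genes (horizontal axis, RUNX1::ERG against EV), grouped and coloured by role, with its standard error as a bar. Every gene of the IMP route lies left of 0, from -0.56 for ATIC to -0.33 for ADSL, while the genes of deoxynucleotide synthesis lie around 0, from -0.12 for DUT to 0.34 for RRM2.

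PRPS1 and PRPS2 make PRPP, the activated ribose on which purines are built and to which bases are joined. PRPS1 was measured at 137 and 149 CPM in the EV libraries and 116 and 123 CPM in the RUNX1::ERG libraries, and PRPS2 at 60.7 and 73.8 CPM in the EV libraries and 50.3 and 57.4 CPM in the RUNX1::ERG libraries. Both genes were lower in each RUNX1::ERG library than in either EV library, as were 22.1% of all genes tested. Their log2 fold changes were -0.26 ± 0.15 (SE) and -0.32 ± 0.17, with edgeR quasi-likelihood adjusted p of 0.42 and 0.38.

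The 6 genes of the IMP route had the lowest median of the 7 roles, a log2 fold change of -0.44 or a difference of -26.3%. In all 6 both RUNX1::ERG libraries were below both EV libraries, beside 22.1% of all genes tested, yet none passed the adjusted test. PPAT, which commits PRPP to purine synthesis, was at 92.0 and 114 CPM in the EV libraries and 72.2 and 88.7 CPM in the RUNX1::ERG libraries. GART, a protein with 3 enzyme activities of the route, was at 521 and 531 CPM in the EV libraries and 333 and 402 CPM in the RUNX1::ERG libraries. The EV libraries of GART were nearly level, and both RUNX1::ERG libraries lay well under them, with means of 526 ± 7.09 CPM against 368 ± 48.7 CPM (SD, n = 2). PFAS, an enzyme of the route that uses glutamine, was at 131 and 167 CPM in the EV libraries and 103 and 112 CPM in the RUNX1::ERG libraries. PAICS, which joins carboxylation with the next step, was at 480.5 and 623 CPM in the EV libraries and 355 and 476 CPM in the RUNX1::ERG libraries, so that the higher RUNX1::ERG library nearly met the lower EV library. ADSL, which acts both here and in the AMP branch, was at 109 and 131 CPM in the EV libraries and 85.8 and 105 CPM in the RUNX1::ERG libraries. ATIC, whose 2 activities complete IMP, was at 202 and 222 CPM in the EV libraries and 130.1 and 157 CPM in the RUNX1::ERG libraries.

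ATIC (chr2:216176679-216214496, GRCh37) had the lowest adjusted p of the 38 genes, with a log2 fold change of -0.56 ± 0.16 (SE) and means of 212 ± 14.7 CPM against 144 ± 19.0 CPM (SD, n = 2). Within the route, GART (chr21:34876238-34915797) followed at -0.52 ± 0.15, with an edgeR quasi-likelihood adjusted p of 0.083, then PFAS (chr17:8150936-8173809) at -0.47 ± 0.17, with 0.16. PAICS (chr4:57301907-57330744) stood at -0.41 ± 0.18 with an adjusted p of 0.27 by the same edgeR test, and PPAT, its head-to-head neighbour (chr4:57259528-57301781), at -0.36 ± 0.18 with 0.33. The level of PPAT relative to PAICS, as a log2 ratio of CPM, was -2.38 and -2.45 with EV and -2.30 and -2.42 with RUNX1::ERG, which overlapped between the groups, and this pair was chosen after its values were seen. ADSL had a log2 fold change of -0.33 ± 0.17 and an adjusted p of 0.37 by edgeR's test.

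The size of the difference in the IMP route depended on which library was left out. Its side could hardly change, because in all 6 genes both RUNX1::ERG libraries were below both EV libraries. The median of the 6 genes was -0.56 without EV replicate 1 and -0.25 without EV replicate 2, it was -0.30 when RUNX1::ERG replicate 1 was left out and -0.60 when replicate 2 of that group was, and in each of these fits all 6 genes were below 0. Without EV replicate 2 the medians of PRPP and pyrimidine synthesis also came nearer to 0, at -0.19 and -0.16. With all 4 libraries the IMP route median was -0.44, so leaving out RUNX1::ERG replicate 2 or EV replicate 1 widened the difference. EV replicate 1 was also the library with high amino acid stress genes, a link that was not tested. Without it, 4 of the 38 genes passed the edgeR test, namely IMPDH1 at an adjusted p of 0.0053 and ATIC, PAICS and PFAS at 0.040, 0.041 and 0.045. None of the 38 passed in the other 3 fits. Each of the 4 fits leaves 1 library alone in its group, and that library is assumed to vary like the others.

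**Figure D2:**
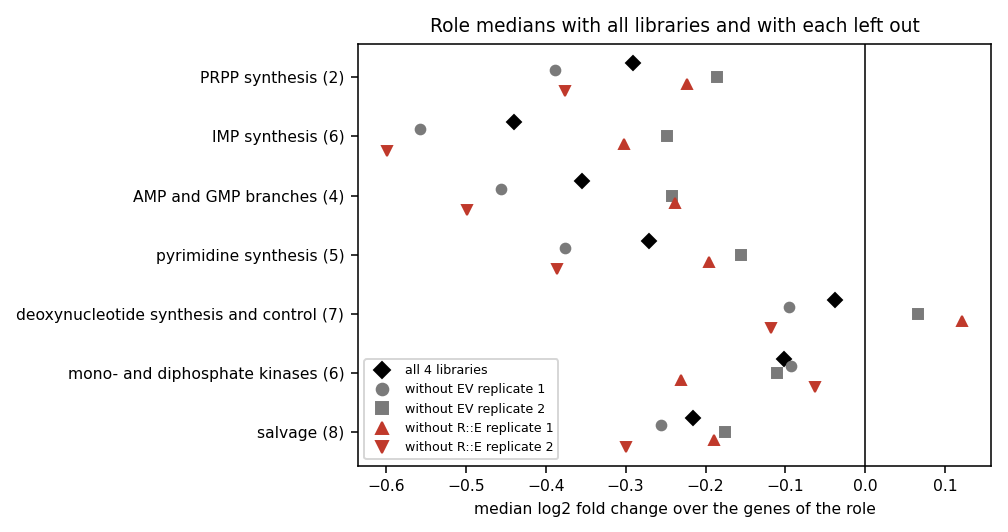
Median log2 fold change over the genes of each role (horizontal axis, number of genes in parentheses) with all 4 libraries (diamonds) and with each library left out in turn (other symbols). The IMP route, with no gene whose groups overlap, can hardly cross 0 and lies between -0.60 and -0.25. Deoxynucleotide synthesis, where the groups of several genes overlap, crosses 0, from -0.12 to 0.12.

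In the branches from IMP, the median log2 fold change was -0.36 and all 4 genes were below 0. IMPDH1 and IMPDH2 carry out the rate-limiting step to GMP, and mycophenolic acid inhibits both. IMPDH1 (chr7:128032331-128050040) was at 109 and 149 CPM in the EV libraries and 90.2 and 80.0 CPM in the RUNX1::ERG libraries, with the lowest fitted value of the 38 genes, a log2 fold change of -0.60 ± 0.18 (adjusted p = 0.099, edgeR's quasi-likelihood test). EV replicate 2 set much of that difference, since without it the log2 fold change was -0.35. IMPDH2 (chr3:49061758-49066880), the more abundant form here, was at 267 and 287 CPM in the EV libraries and 199 and 214 CPM in the RUNX1::ERG libraries, with replicates close together in both groups. Its log2 fold change was -0.42 ± 0.15 with an adjusted p of 0.15 by the edgeR test, and its values with a library left out, -0.49 to -0.37, moved little. Of the merged exon bases of IMPDH2, 32.8% are shared with an unnamed gene on the same strand, and how such reads were counted is not given in the sources used here. GMPS, which finishes GMP, was at 220.4 and 224 CPM in the EV libraries and 191 and 211 CPM in the RUNX1::ERG libraries, a small gap with a log2 fold change of -0.15 ± 0.15. ADSS2, the first enzyme of the AMP branch, was at 80.0 and 100.2 CPM in the EV libraries and 64.0 and 83.8 CPM in the RUNX1::ERG libraries, and its groups overlapped.

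**Figure D3:**
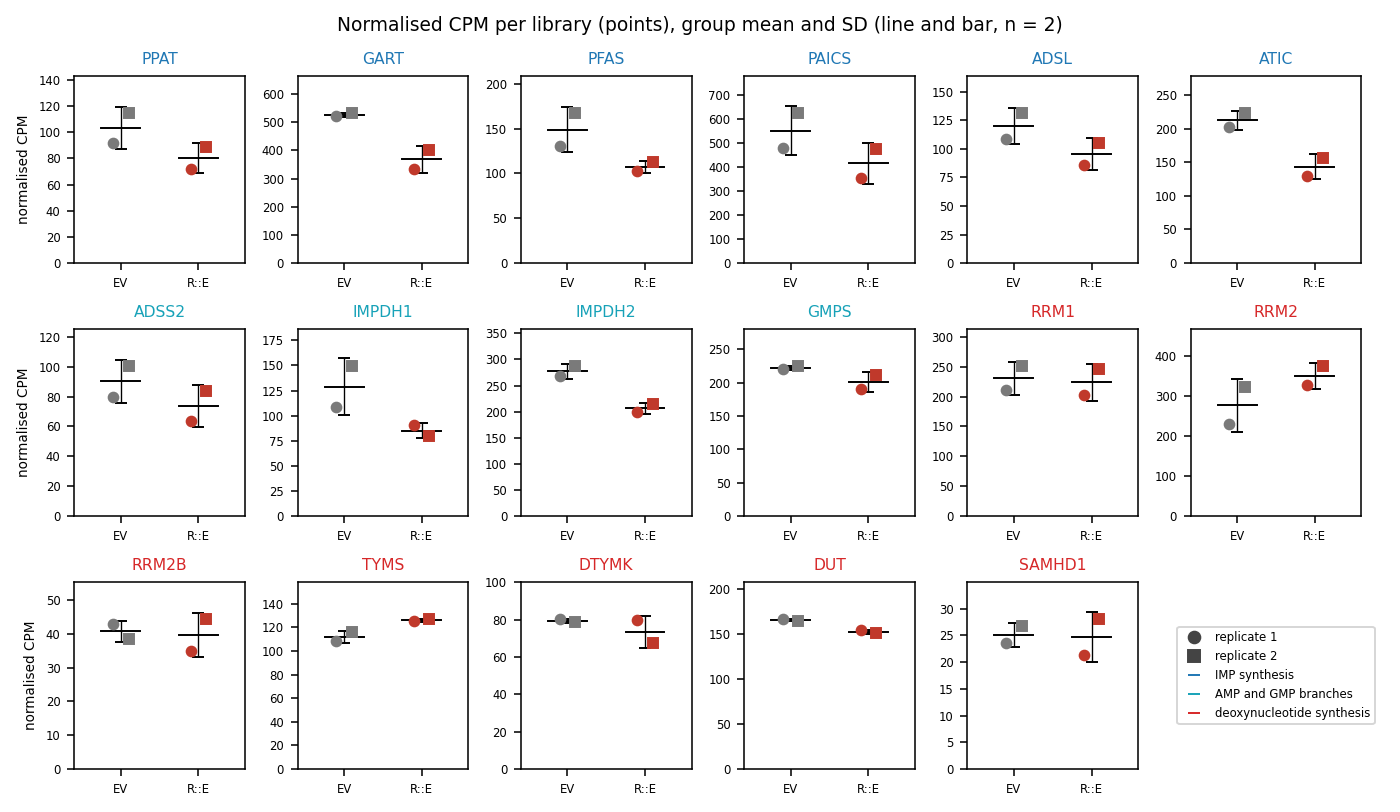
Normalised CPM in each library for the IMP route, the AMP and GMP branches and deoxynucleotide synthesis, 1 panel per gene with its own axis from 0; circles and squares are replicates 1 and 2, the line and bar are the group mean and SD (n = 2). IMPDH2 shows 2 tight pairs at different levels, ADSS2 and RRM1 show groups that overlap, and RRM2 and TYMS are the panels with both RUNX1::ERG libraries on top.

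Pyrimidine synthesis had a median log2 fold change of -0.27 over 5 genes, all below 0. In 4 of them both RUNX1::ERG libraries were below both EV libraries, beside 22.1% of all genes tested. CAD, a large protein that carries out the opening steps and is controlled by UTP, was at 233 and 284 CPM in the EV libraries and 199.99 and 229 CPM in the RUNX1::ERG libraries. DHODH, the mitochondrial enzyme of the route, was at 19.8 and 26.5 CPM in the EV libraries and 16.2 and 19.3 CPM in the RUNX1::ERG libraries, where the highest RUNX1::ERG library and the lowest EV library nearly met. CTPS1 and CTPS2 turn UTP into CTP, with CTPS1 at 174 and 203 CPM in the EV libraries and 152 and 160.0 CPM in the RUNX1::ERG libraries and CTPS2 at 28.6 and 29.0 CPM in the EV libraries and 20.4 and 25.1 CPM in the RUNX1::ERG libraries. UMPS, which completes UMP, was the exception at 36.1 and 61.7 CPM in the EV libraries and 43.6 and 53.1 CPM in the RUNX1::ERG libraries. The EV libraries of UMPS spanned both RUNX1::ERG libraries, and its log2 fold change of -0.018 ± 0.24 ran from -0.35 to 0.42 with 1 library left out. The adjusted p of the 5 genes lay between 0.40 and 0.99 by edgeR's quasi-likelihood test.

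Deoxynucleotide synthesis had a median log2 fold change of -0.039 over 7 genes, with 5 below 0 and 2 above, and its difference from the IMP route was not tested. RRM2, the small subunit of ribonucleotide reductase that is made in S phase, was at 230.2 and 323 CPM in the EV libraries and 327 and 374 CPM in the RUNX1::ERG libraries. Both RUNX1::ERG libraries were above both EV libraries, although the lower RUNX1::ERG library exceeded the higher EV library by little, and the log2 fold change of 0.34 ± 0.18, the highest of the 38 genes, had an edgeR quasi-likelihood adjusted p of 0.37. Without EV replicate 1 it was 0.12. RRM1, the large subunit, was at 211 and 250.4 CPM in the EV libraries and 202 and 245 CPM in the RUNX1::ERG libraries, and RRM2B, the small subunit induced by p53, was at 42.9 and 38.6 CPM in the EV libraries and 35.0 and 44.3 CPM in the RUNX1::ERG libraries, and both overlapped between the groups. The log2 ratio of RRM2 to RRM1 was 0.13 and 0.37 with EV and 0.70 and 0.61 with RUNX1::ERG, and that of RRM2 to RRM2B was 2.42 and 3.06 with EV and 3.22 and 3.08 with RUNX1::ERG, the first of them chosen after its values were seen. In each ratio both RUNX1::ERG libraries were above both EV libraries, by a mean of 0.40, but for RRM2B one RUNX1::ERG library exceeded an EV library only narrowly. Without EV replicate 1 the difference was 0.28 for the ratio to RRM1 and 0.085 for the ratio to RRM2B, and without EV replicate 2 it was 0.52 and 0.72.

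TYMS, which methylates dUMP to dTMP and is the target of fluorouracil, was at 108 and 116 CPM in the EV libraries and 125 and 127 CPM in the RUNX1::ERG libraries. The pairs were tight and did not overlap, the log2 fold change was 0.17 ± 0.15, and the adjusted p was 0.63 by the edgeR test. Of the exon bases of TYMS (chr18:657653-673578), 39.9% lie opposite exons of ENOSF1, and whether strand was used in counting is not given in the sources used here, so part of this level may belong to that gene. DTYMK, the kinase that follows TYMS, was at 80.1 and 78.6 CPM in the EV libraries and 79.6 and 67.5 CPM in the RUNX1::ERG libraries, with overlapping groups. DUT, which keeps dUTP out of DNA, was at 166 and 165 CPM in the EV libraries and 154 and 151 CPM in the RUNX1::ERG libraries, a small gap between tight pairs with a log2 fold change of -0.12 ± 0.15. SAMHD1, which degrades deoxynucleoside triphosphates, was at 23.6 and 26.7 CPM in the EV libraries and 21.4 and 28.0 CPM in the RUNX1::ERG libraries, with overlapping groups.

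The mono- and diphosphate kinases, which phosphorylate nucleotides from either source, lay near 0, with a median log2 fold change of -0.10 over 6 genes and overlapping groups in 5. CMPK1, the UMP and CMP kinase, was at 258 and 283 CPM in the EV libraries and 255 and 296 CPM in the RUNX1::ERG libraries, and GUK1, the GMP kinase, at 214 and 208 CPM in the EV libraries and 209 and 183 CPM in the RUNX1::ERG libraries. Of the nucleoside diphosphate kinases, NME1 was at 63.5 and 86.9 CPM in the EV libraries and 61.7 and 72.3 CPM in the RUNX1::ERG libraries, NME3 at 34.7 and 34.8 CPM in the EV libraries and 38.02 and 27.1 CPM in the RUNX1::ERG libraries and the mitochondrial NME4 at 151 and 152 CPM in the EV libraries and 142 and 127 CPM in the RUNX1::ERG libraries. Only in NME4 were both RUNX1::ERG libraries below both EV libraries, beside 22.1% of all genes tested. NME2 was listed at 52 to 157 counts, 1.51 and 1.16 CPM with EV and 1.86 and 0.723 CPM with RUNX1::ERG, but it shares 24.2% of its exon bases, and NME1 18.7%, with the read-through gene NME1-NME2, which had 0 counts in every library, so the levels of NME1 and NME2 are uncertain.

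The 8 salvage genes had a median log2 fold change of -0.22, with 7 below 0. APRT and HPRT1 return adenine, and hypoxanthine and guanine, to the purine pool, and HPRT1 also activates mercaptopurine. APRT was at 167 and 177 CPM in the EV libraries and 153 and 141 CPM in the RUNX1::ERG libraries, and HPRT1 was at 94.0 and 106 CPM in the EV libraries and 78.5 and 92.3 CPM in the RUNX1::ERG libraries. In APRT and HPRT1 both RUNX1::ERG libraries were below both EV libraries, beside 22.1% of all genes tested. Their log2 fold changes were -0.23 ± 0.15 and -0.23 ± 0.16. ADK, which phosphorylates adenosine, was at 69.1 and 75.5 CPM in the EV libraries and 59.9 and 72.4 CPM in the RUNX1::ERG libraries, with overlapping groups. The uridine and cytidine kinases lay on opposite sides of 0. UCK2 was at 80.0 and 87.9 CPM in the EV libraries and 68.2 and 64.8 CPM in the RUNX1::ERG libraries, with a log2 fold change of -0.34 ± 0.16 and an edgeR quasi-likelihood adjusted p of 0.29, whereas UCK1 was at 30.4 and 32.4 CPM in the EV libraries and 36.1 and 35.2 CPM in the RUNX1::ERG libraries, with 0.18 ± 0.17 and an adjusted p of 0.66 by the same test. Their log2 ratio, UCK2 to UCK1, was 1.39 and 1.44 with EV and 0.92 and 0.88 with RUNX1::ERG, a difference of -0.52 between group means whose SDs were both 0.03 (n = 2).

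Among the deoxynucleoside kinases, DCK activates cytarabine and other nucleoside drugs used in leukemia. DCK was at 30.6 and 32.5 CPM in the EV libraries and 23.7 and 31.1 CPM in the RUNX1::ERG libraries, with RUNX1::ERG replicate 2 between the EV libraries, and its adjusted p was 0.66 by edgeR's test. TK1, the thymidine kinase of S phase, was at 235 and 220.0 CPM in the EV libraries and 215 and 183 CPM in the RUNX1::ERG libraries, and TK2, the mitochondrial one, at 10.2 and 9.13 CPM in the EV libraries and 6.85 and 8.04 CPM in the RUNX1::ERG libraries. In both thymidine kinases the RUNX1::ERG libraries were below the EV libraries, beside 22.1% of all genes tested. Their log2 fold changes were -0.19 ± 0.16 and -0.38 ± 0.23, and neither passed the test.

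Of the 10 ratios between partner genes, 3 had groups that did not overlap, the UCK2 ratio and both RRM2 ratios. With 2 libraries against 2, shuffled labels keep a single ratio's groups apart with a probability of 0.333, so this count is not read as a result. The 2 RRM2 ratios also share a gene, and RRM2 to RRM1 and PPAT to PAICS were chosen after their values were seen. The ratio of IMPDH2 to IMPDH1 was 1.30 and 0.94 with EV and 1.14 and 1.42 with RUNX1::ERG on the log2 scale, with the EV libraries spanning a RUNX1::ERG library. CTPS1 to CTPS2, PRPS1 to PRPS2, TK1 to TK2, NME1 to NME2, NME3 to NME4 and PPAT to PAICS overlapped as well, with differences between group means of 0.04 to 0.18.

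**Figure D4:**
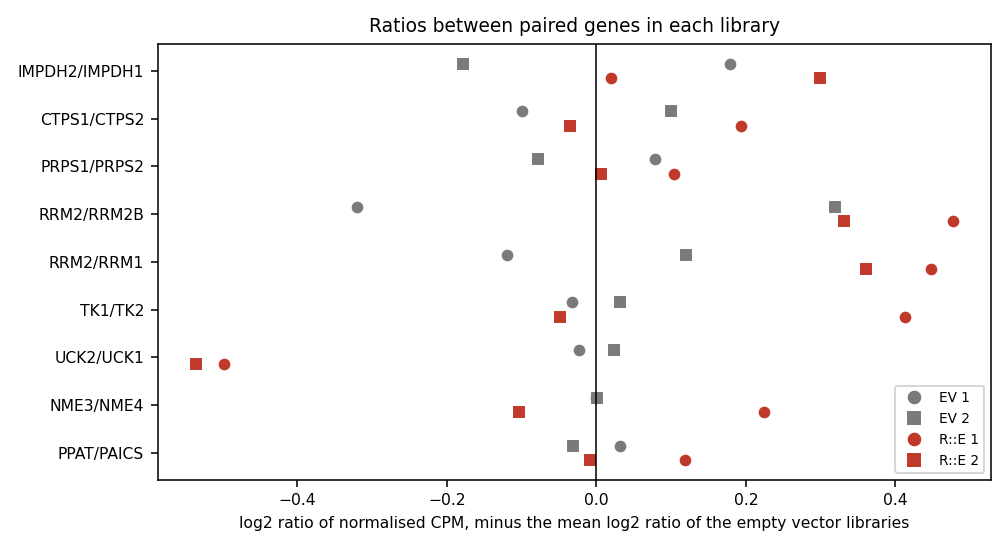
Log2 ratio of normalised CPM between partner genes in each library (horizontal axis), after subtracting the mean of the 2 EV libraries for that pair; NME1 to NME2 is not drawn. UCK2 to UCK1 lies near -0.5 in both RUNX1::ERG libraries, and RRM2 to RRM1 lies right of both EV libraries, while the other pairs, RRM2 to RRM2B apart, overlap.

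Per kilobase of the main transcript, the mean level with EV ran from 1.94 CPM per kb for NME2 to 226 CPM per kb for GUK1. The level of NME2 is uncertain for the overlap with NME1-NME2 described above. GUK1 was followed by APRT at 185, IMPDH2 at 168, TK1 at 159 and GART at 158 CPM per kb, the last of these at the level of TK1 within the spread of its libraries. The IMP route was uneven on this scale: GART, ATIC at 108 and PAICS at 86.6 CPM per kb stood above PPAT at 28.0, PFAS at 27.7 and ADSL at 27.5 CPM per kb, which did not differ from each other beyond their spread. In RUNX1::ERG cells GART was at 111 and ATIC at 72.8 CPM per kb. The pyrimidine genes DHODH at 4.95, CTPS2 at 7.28 and UMPS at 7.36 CPM per kb were near the lower end in EV cells, and TK2 at 2.00 CPM per kb was lower still.

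Lists of further genes of nucleotide metabolism show what surrounds these enzymes. Of 49 genes of nucleotide breakdown and other interconversion, 37 were tested, 1 was called higher, 0 lower, and the median log2 fold change was 0.011, with 18 below 0. The called gene was AK1, the cytosolic adenylate kinase, at 50.2 and 55.1 CPM in the EV libraries and 91.0 and 79.8 CPM in the RUNX1::ERG libraries, with a log2 fold change of 0.70 ± 0.16 and an edgeR quasi-likelihood adjusted p of 0.036. Without EV replicate 1 its adjusted p by the same edgeR test was 0.073, and without RUNX1::ERG replicate 1 it was 0.19. MTAP, which feeds adenine to APRT, LACC1 and NME5 had 0 counts in every library. None of 4 tested nucleoside transporters, of 7 listed, passed the test, and the median was -0.26, or -0.14 without EV replicate 2, -0.15 with RUNX1::ERG replicate 2 left out and -0.41 with replicate 1 of that group left out, with the main uptake carrier SLC29A1 at 168 and 201 CPM in the EV libraries and 153 and 145 CPM in the RUNX1::ERG libraries.

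Folate enzymes supply the one-carbon units that GART, ATIC and TYMS use. Of 14 listed, 13 were tested, 12 were below 0, the median log2 fold change was -0.17, and MTHFD1L, the mitochondrial formate-producing enzyme, fell, at 168 and 123 CPM in the EV libraries and 85.0 and 90.4 CPM in the RUNX1::ERG libraries (log2 fold change -0.73 ± 0.18, adjusted p = 0.045 by edgeR's quasi-likelihood test). EV replicate 1 was the highest library for MTHFD1L, and without it the log2 fold change was -0.49 with an adjusted p of 0.18 by that test. ALDH1L2, MTHFD2 and SHMT2, chosen after their values were seen, did not pass, at log2 fold changes of -2.26, -1.07 and -0.72. Their edgeR quasi-likelihood adjusted p were 0.055, 0.062 and 0.068. EV replicate 1 was their highest library too, at 55.6, 368 and 382 CPM, beside 9.49, 173 and 250 CPM in EV replicate 2. In EV replicate 1 the summed level of the 16 amino acid stress genes was the highest of the 4 libraries. Its part in the results of these folate genes was not tested. MTHFD1 is the cytosolic enzyme that makes the cofactor for GART and ATIC. It was at 199 and 251 CPM in the EV libraries and 159 and 195 CPM in the RUNX1::ERG libraries. For this gene both RUNX1::ERG libraries were below both EV libraries, beside 22.1% of all genes tested.

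Among 20 S phase genes that are not nucleotide enzymes, 0 passed edgeR's quasi-likelihood test, 17 were below 0 and the median log2 fold change was -0.18, beside -0.22 for the nucleotide enzymes. At an unadjusted edgeR p of 0.05, 4 of the 20 were on the lower side, beside 7.26% of all genes tested, and 1 was on the higher. DESeq2's Wald test and voom called 0. Without EV replicate 2, 10 of the 20 were below 0 and the median was -0.055, where that of the nucleotide enzymes was -0.16 with 30 of 38 below 0, and without RUNX1::ERG replicate 1 it was -0.11 beside -0.21. Without EV replicate 1 it was -0.27, and 1 of the 20 was called lower. Their summed level was 4141 and 4621 CPM with EV and 3744 and 3821 CPM with RUNX1::ERG. Like that of the nucleotide enzymes, this sum was lower in each RUNX1::ERG library than in either library with EV, and its part in the result was not tested. Of 6 monocytic markers, CD14 and LYZ were called higher, with a summed level of 7.79 and 10.7 CPM with EV and 22.5 and 20.8 CPM with RUNX1::ERG, and MPO, ELANE, ITGAM and CSF1R were near 0.

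In each of the 2 groups, replicate 1 was the lower library for many of these enzymes. EV replicate 1 was below EV replicate 2 in 31 of the 38 genes, beside 47.5% of all genes tested, and RUNX1::ERG replicate 1 was below replicate 2 in 27, beside 49.6%. PAICS, PPAT, UMPS and RRM2 were among the genes whose lower library was replicate 1 in both groups. The summed level of RUNX1 and ERG was 1739 CPM in RUNX1::ERG replicate 1 and 779 CPM in replicate 2 of that group. A part of that level in the order of the RUNX1::ERG libraries was not tested.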

How the data were processed

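Counts of sequenced reads per NCBI gene were deposited by the authors for each of 4 libraries. The submitters' processing notes name hg19, the aligner HISAT2 2.2.1 and the counter featureCounts 2.0.1. The strand setting is not given in the sources used here. Gene numbers were matched to symbols for 92.2% of 25702 genes.

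Counts were filtered by filterByExpr, scaled by TMM and tested with edgeR 4.0.16 (quasi-likelihood, Benjamini-Hochberg adjustment, threshold 0.05) in R 4.3.3, RUNX1::ERG against EV. The fit covered all genes. CPM are counts scaled to the TMM library size. The 3-count floor was 0.0364 to 0.0503 CPM per library, for counting error only. Alternatives used DESeq2 1.42.0, limma 3.58.1 (voom), other scalings and filters, halved counts, a replicate block and each library left out. The study calls the libraries of a group biological replicates, and they differed beyond counting noise (chi-square per degree of freedom 91.7 for EV and 72.6 for RUNX1::ERG).

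Members and lists were chosen with earlier results of these data known. All 38 members are named. Of the pathway lists, genes are named past an adjusted p of 0.05 with groups not overlapping and an average level of 5 CPM or more, up to 6 per list, and other genes named were chosen after their values were seen. Positions are from GENCODE on GRCh37, lengths are of the main (MANE) transcript, and upstream sequences are from RefSeq GRCh38.p14.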

Additional observations from a re-analysis of the deposited data

How the results depend on the processing

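With 2 libraries per group, which of the 38 genes were called depended on the test and on the libraries used. Counts were at least 100 in every library for 37 of them. Genes called numbered 737, and 1500 with no filter, 1204 by DESeq2's Wald test, 1733 with a replicate block and 354 to 1355 with a library left out. The higher share of calls was 76.0%, and 64.1% with no filter, 62.4% with the block, 66.4% by DESeq2's Wald test and 55.8% without EV replicate 2. Of the 38 members, 0 were called, 3 with no filter (ATIC, GART and IMPDH1), 3 by DESeq2's Wald test, 6 with the replicate block (ATIC, GART, PAICS, PFAS, IMPDH1 and IMPDH2) and 0 to 4 with a library left out. The labels do not say that a replicate number marks a batch. Deviations of same-numbered libraries correlated at r = 0.35 over genes, with 2 pairs only.

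Breakdown genes called numbered 2 with DESeq2 size factors, 3 with no filter, 6 with the block and 0 to 3 with a library left out, and transporter genes stayed at 0. Folate genes called numbered 3 with DESeq2 size factors, 0 with library totals, 4 with no filter, 2 with at least 10 counts in every library, 3 by DESeq2's Wald test, 0 by voom, 3 with the block and 0 to 4 with a library left out. S phase genes called numbered 3 with the block and 0 to 1 with a library left out. Amino acid stress genes called numbered 4, 1 with library totals, 15 with no filter, 2 by DESeq2's Wald test, 0 by voom, 7 with the block and 2 to 15 with a library left out. The cause was not tested.

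The log2 fold change of UMPS was 0.030 with library totals, 0.018 by voom and 0.026 with the block, and that of SAMHD1 was 0.014 with library totals. With a library left out, medians ran from -0.60 to -0.25 for the IMP route, -0.50 to -0.24 for the AMP and GMP branches, -0.12 to 0.12 for deoxynucleotide genes, -0.23 to -0.063 for the kinases and -0.30 to -0.18 for salvage. Single genes that crossed 0 then were UMPS (-0.35 to 0.42), RRM1 (-0.21 to 0.089), RRM2B (-0.23 to 0.12), SAMHD1 (-0.25 to 0.15), NME1 (-0.37 to 0.077), NME2 (-0.88 to 0.47), NME3 (-0.36 to 0.12), CMPK1 (-0.097 to 0.13) and ADK (-0.28 to 0.0022). Of the members' single values with all libraries kept, 288 had the same direction and side of the threshold, 12 passed it and 4 turned, those of UMPS and SAMHD1 above.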

Other observations

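Of the 37 breakdown and interconversion genes tested, 12 had both RUNX1::ERG libraries above both EV libraries, 10 had both below, and 15 overlapped, beside 25.1% of all genes tested above and 22.1% below. The genes given here were chosen after their values were seen, and none passed the adjusted test. AMPD2, which deaminates AMP to IMP, was at 75.6 and 91.7 CPM with EV and 123 and 112 CPM with RUNX1::ERG, with a log2 fold change of 0.49 ± 0.16 (SE) and an edgeR quasi-likelihood adjusted p of 0.13. GMPR, which returns GMP to IMP, was at 66.2 and 60.3 CPM with EV and 93.2 and 83.6 CPM with RUNX1::ERG, with 0.48 ± 0.16 and 0.12 by the same test. PNP, which splits purine nucleosides into base and sugar, was at 99.8 and 122 CPM with EV and 151 and 154 CPM with RUNX1::ERG, with 0.46 ± 0.16 and 0.16. GMPR2, the paralog of GMPR, was below both EV libraries, at 35.1 and 30.4 CPM with EV and 27.1 and 29.2 CPM with RUNX1::ERG, as was ITPA, which clears inosine triphosphate, at 55.0 and 54.1 CPM with EV and 51.3 and 43.5 CPM with RUNX1::ERG. NT5C, a nucleotidase that acts on deoxynucleotides, was also below both, at 49.1 and 36.1 CPM with EV and 31.1 and 25.05 CPM with RUNX1::ERG, with -0.60 ± 0.21 and 0.14 by edgeR's test.

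PRPS1L1, a relative of PRPS1 that is usually confined to testis, was at 0.0332 and 0.0709 CPM with EV and 0.463 and 0.362 CPM with RUNX1::ERG, with 1 EV library below the level of 3 counts and the other above it, and its adjusted p was 0.051 by edgeR's quasi-likelihood test. It has a close copy in PRPS1, and how reads matching both were counted is not given in the sources used here, so its level is uncertain.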
